A study of Mus musculus with 6 samples.

Results

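Keratins are the intermediate filament proteins of epithelial cells, and this report describes the keratin genes of the mouse uterus with and without Nat10. The genes were taken by name, as every row of the deposited tables whose symbol is Krt followed by a number alone. This gave 50 of 20637 listed genes. The 50 were chosen by symbol. The expressed members among them were selected on their measured FPKM in all 6 libraries of both groups, as those at 1 or more in at least 3 libraries, and this held for 11 of the 50. Their levels are therefore a description. The RNA-seq libraries were made from the poly(A) RNA of the whole uterus, taken from female mice on postnatal day 21, with 3 libraries from Nat10 f/f mice (floxed controls) and 3 from Nat10 d/d mice (Nat10-deleted). The labels give no other allele, treatment or agent for either group. They name neither the Cre driver nor the cells that lost the gene, and they do not say that each library is a separate mouse, so that p-values measure only the spread between these libraries, which may be technical.

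Keratin filaments are built from pairs of 1 type I (acidic) and 1 type II (basic or neutral) chain. Single-layered epithelia, such as the luminal and glandular epithelium of the uterus, use the simple keratins, chiefly Krt8 (type II) with Krt18 or Krt19 (type I), together with Krt7. Layered epithelia such as skin, vagina and the outer cervix use stratified keratins, with Krt5 and Krt14 in the basal layer. Hair keratins belong to the hair shaft and the sheaths around it. Nat10 encodes an acetyltransferase that modifies cytidines in RNA.

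The 50 rows comprised 5 simple, 17 stratified and 23 hair keratins (14 of the shaft and 9 of the sheaths) and 5 that fit none of these classes. They counted 26 type I and 24 type II genes. On the mm10 assembly (GENCODE release M21), 25 lie on chromosome 11 and 25 on chromosome 15. Krt18 is a type I gene that sits on chromosome 15 among the type II genes, at 102028180 to 102032027, next to its partner Krt8 at 101996698 to 102004482.

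Promoter windows show how unlike the start regions of these genes are. RefSeq windows (build GRCm38.p6, from 250 bases before the transcript start to 50 bases after it) were held for 35 of the 50 genes, as 36 windows. The letters TATAAA, the core of the TATA box, were searched on both strands and without regard to overlap with other motifs. They were in 18 of the 36 keratin windows (50%) and in 13.6% of 32851 windows of the same length over all genes. By class, they were in 12 of 16 hair, 3 of 13 stratified, 2 of 4 simple and 1 of 3 other keratin windows. Krt8 and Krt18 are printed because they are filament partners whose levels parted between libraries, and Krt12 because it had the widest spread of the expressed keratins. The windows are chr15:102004293-102004592 (minus strand), chr15:102027966-102028265 (plus strand) and chr11:99422210-99422509 (minus strand), each 5′ to 3′ along its gene, with TATAAA in capitals.
Krt8: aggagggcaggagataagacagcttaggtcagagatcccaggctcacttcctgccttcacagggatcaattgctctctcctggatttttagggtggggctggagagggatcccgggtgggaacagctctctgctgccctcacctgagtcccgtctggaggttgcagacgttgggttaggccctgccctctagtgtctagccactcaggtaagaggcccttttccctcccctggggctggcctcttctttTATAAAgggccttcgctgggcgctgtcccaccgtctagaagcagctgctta
Krt18: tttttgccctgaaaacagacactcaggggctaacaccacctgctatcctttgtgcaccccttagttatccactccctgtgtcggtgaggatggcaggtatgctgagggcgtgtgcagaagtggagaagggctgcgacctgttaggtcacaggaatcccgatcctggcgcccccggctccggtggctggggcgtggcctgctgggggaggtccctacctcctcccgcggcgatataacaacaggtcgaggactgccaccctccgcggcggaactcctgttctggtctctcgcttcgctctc
Krt12: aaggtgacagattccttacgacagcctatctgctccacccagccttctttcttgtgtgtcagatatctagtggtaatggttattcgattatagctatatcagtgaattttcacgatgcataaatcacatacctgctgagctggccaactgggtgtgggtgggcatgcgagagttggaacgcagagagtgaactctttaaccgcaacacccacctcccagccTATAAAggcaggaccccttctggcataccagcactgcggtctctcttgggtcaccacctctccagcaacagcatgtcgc
The motif starts at base 250 of the Krt8 window and at base 222 of the Krt12 window, counted from 1 at the 5′ end, and these letters are not in the Krt18 window. Base 250 is the last before the RefSeq transcript start, so in Krt8 the letters lie across that start. GENCODE places the Krt8 start further upstream, at 102004482. The counts above take matches at any position in the window. A match of letters is a description and says nothing of which factors bind.

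The values are FPKM, fragments scaled to transcript length and to the size of the library, and so can be compared between genes. Absolute depth is unknown; the deepest library was estimated at 1.26 times the shallowest. Nat10 itself was 13.2, 16.4 and 9.95 FPKM in control replicates 1, 2 and 3 and 5.57, 5.23 and 5.53 FPKM in the deleted replicates, so the groups did not overlap (exact permutation test, two-sided p = 0.1, the smallest that 3 libraries against 3 allow). Markers of the labelled tissue were present, with Hoxa10 at 116 to 151 FPKM and Esr1 at 83.9 to 134 FPKM. Nat10-deleted replicate 2 stood apart on the first principal component, at -40.2 against -4.6 to 25.1 in the other libraries, and had the highest Mki67, a marker of dividing cells, at 24 FPKM against 1.28 to 10.7.

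Over all genes, limma (two-sided, Benjamini-Hochberg adjustment) called 0 of 12640 tested genes at an adjusted p of 0.05, which is 0% (630 genes, 4.98%, had an unadjusted p under 0.05). Of the 11 expressed keratins, 0 were called and 2 had an unadjusted p under 0.05. These 2, Krt83 and Krt15, were also the keratins whose groups did not overlap, both with lower values in deleted uteri. Among all tested genes the groups did not overlap for 10.7%, with lower deleted values for 4.6% and higher ones for 6.12%. The other 9 expressed keratins differed between groups by less than 0.3 log2 units. The median log2 difference of the 11 was 0.01, beside 0.03 for all tested genes. In whole tissue, fewer cells of a type and less RNA per cell cannot be told apart.

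**Figure D1:**
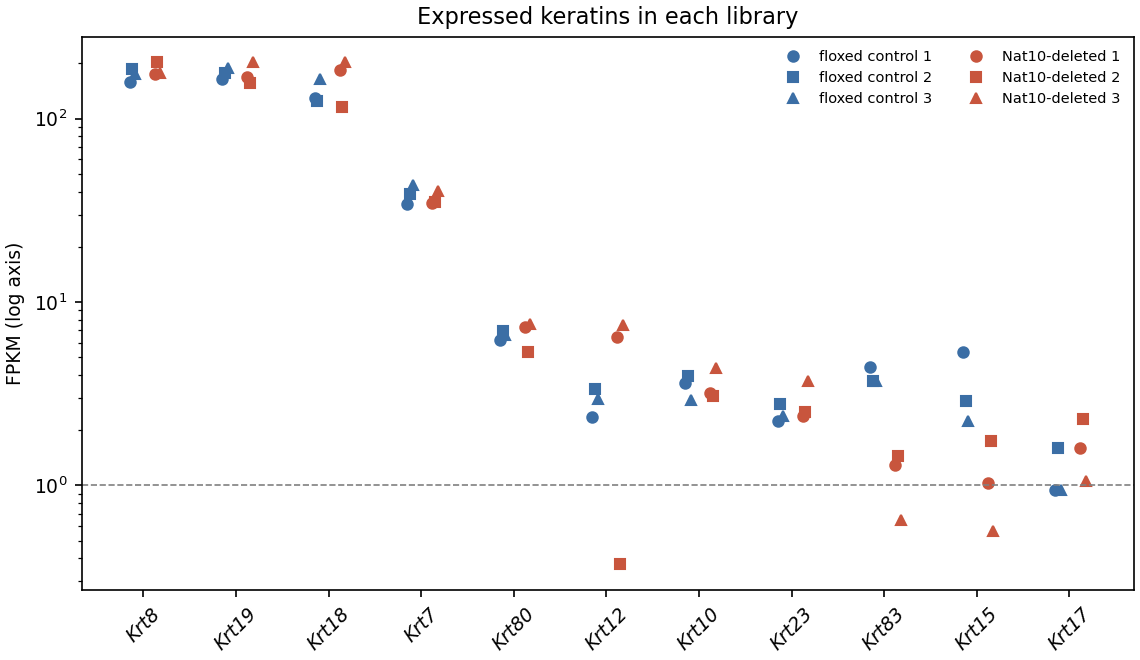
FPKM (log axis) of the 11 expressed keratins in each library, ordered by mean; blue marks are floxed controls, red marks Nat10-deleted, and marker shape gives the replicate. The simple keratins Krt8, Krt19, Krt18 and Krt7 lie at 34.4 to 204 FPKM and every other keratin at or under 7.57 FPKM; the dashed line is 1 FPKM.

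Simple keratins carried nearly all keratin RNA. Their summed values were 487, 528 and 572 FPKM in control replicates 1, 2 and 3 and 565, 510 and 626 FPKM in the deleted replicates, or 94.1% to 96.2% of all keratin signal in every library. The mean was 529 ± 42.3 FPKM in controls and 567 ± 57.8 FPKM in deleted uteri (SD, n = 3), and the ranges overlapped. The median log2 difference of the 4 expressed members was 0.04.

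Krt8, the main type II chain of simple epithelia, was 159, 186 and 175 FPKM in controls and 176, 203 and 177 FPKM in deleted uteri. It ranked between 313th and 381st among the listed genes of every library. Deleted replicate 2 was highest and control replicate 1 lowest, and the groups overlapped (log2 difference 0.10, SE 0.12). The difference was 0.03 without deleted replicate 2, 0.04 without control replicate 1 and 0.15 without control replicate 2. Of the 50-base stretches of Krt8 transcripts, 29.7% also occur in transcripts of other genes, chiefly the pseudogene Krt8-ps, so that reads could have been shared with it.

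Krt18, the type I partner of Krt8, varied more. It was 129, 125 and 164 FPKM in controls and 184, 116 and 204 FPKM in deleted uteri. Deleted replicates 1 and 3 lay above every control and deleted replicate 2 below every control, so the groups overlapped. The log2 difference was 0.24 (SE 0.22; limma adjusted p 0.943), and leaving out single libraries moved it both up and down. It was 0.49 without deleted replicate 2 (limma adjusted p 0.232), 0.37 without control replicate 3, 0.16 without deleted replicate 1 and 0.08 without deleted replicate 3.

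Krt19, a type I keratin that lacks most of the usual tail domain, was 164, 178 and 189 FPKM in controls and 169, 156 and 203 FPKM in deleted uteri. The lowest and the highest library were both deleted ones (replicates 2 and 3). The log2 difference was -0.01 (SE 0.13), and its sign changed without control replicate 3 (0.03), deleted replicate 1 (0.01) or deleted replicate 2 (0.07).

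Krt7, a type II keratin of ductal and reproductive tract epithelia, was 34.4, 38.9 and 43.4 FPKM in controls and 34.7, 35.3 and 40.1 FPKM in deleted uteri. All 3 deleted values lay inside the control range (log2 difference -0.08, SE 0.12). The highest library was 1.26 times the lowest, the narrowest range of the 11 expressed keratins. Krt20, a simple keratin of intestine and urothelium, was the only simple member below the expression limit, at 0.816, 0.67 and 0.66 FPKM in controls and 0.211, 0 and 0.53 FPKM in deleted uteri. Its 3 deleted values all lay below the lowest control, at levels too low to have been tested.

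The balance between partners shifted from library to library among the deleted uteri. The ratio of Krt18 to Krt8 was 0.811, 0.668 and 0.94 in controls and 1.05, 0.571 and 1.15 in deleted replicates 1, 2 and 3. Over all 50 genes, type I keratins summed to 310 to 366 FPKM in controls and to 370, 284 and 426 FPKM in deleted replicates 1, 2 and 3. Type II keratins summed to 208 to 238 FPKM in controls and 220 to 246 FPKM in deleted uteri. The type I to type II ratio was 1.34 to 1.59 in controls, 1.68 and 1.88 in deleted replicates 1 and 3, and 1.15 in deleted replicate 2. The deleted libraries thus lay on both sides of the control range, and no shift between the groups is shown.

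**Figure D2:**
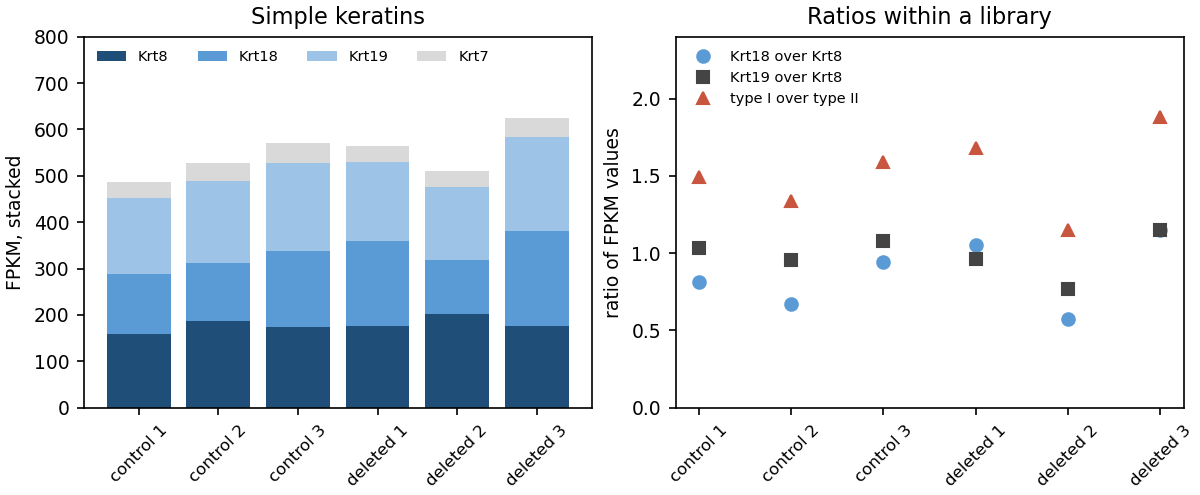
Left, FPKM of the 4 expressed simple keratins stacked for each library; right, ratios of Krt18 to Krt8, of Krt19 to Krt8 and of summed type I to summed type II keratins. The type I to type II ratio is lowest in Nat10-deleted replicate 2 (1.15) and highest in Nat10-deleted replicate 3 (1.88).

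Epithelial genes that are no keratins were set beside these values. Epcam, an adhesion molecule of epithelial cells, was 47, 50.5 and 56.9 FPKM in controls and 62.8, 64.2 and 58 FPKM in deleted uteri, without overlap (log2 difference 0.26; limma adjusted p 0.922). Relative to Epcam, Krt7 was 0.733, 0.771 and 0.763 in controls and 0.553, 0.55 and 0.692 in deleted uteri, so the ratio was lower in all 3 deleted libraries. Krt7 itself lay inside the control range, so the lower ratio reflects the higher Epcam values. Epcam was chosen after its values were seen, and no other luminal gene was used as divisor. The ratio of Krt8 to Epcam was 3.07 to 3.69 in controls and 2.8 to 3.16 in deleted uteri, and overlapped. Those of Krt18 and Krt19 to Epcam overlapped as well. Of 14 luminal epithelium genes, 0 were called, and the fitted log2 difference was above 0 for 10 and below 0 for 4 (median 0.10). Of the 4, Rab25 was nearly level, with mean values of 34 FPKM in controls and 34.1 FPKM in deleted uteri. The groups did not overlap, with higher deleted values, for 4 of the 14 (6.12% over all genes), and 3 of the 14 had an unadjusted p under 0.05 (4.98% over all genes). Among these was Cldn7, a tight junction protein, with means of 47.3 and 67 FPKM (limma unadjusted p 0.00579, adjusted p 0.922).

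Of 17 stratified keratins, 4 were expressed, namely Krt10, Krt12, Krt15 and Krt17. They summed with the other 13 to 10.4 to 16.8 FPKM in controls and 9.98 to 14.7 FPKM in deleted uteri. The median log2 difference of the 4 was 0.10, but it was -0.20 without deleted replicate 3. Of the 4, 3 had higher and 1 had lower deleted values.

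Krt15, a type I keratin of basal and stem cells in layered epithelia, was 5.37, 2.87 and 2.25 FPKM in controls and 1.03, 1.75 and 0.568 FPKM in deleted uteri. Every deleted library lay below every control, with means of 3.5 ± 1.65 and 1.12 ± 0.597 FPKM (SD, n = 3), or 31.9% of control. The log2 difference was -1.06 (SE 0.31, unadjusted p 0.00907), and the limma adjusted p over all genes was 0.922. Control replicate 1 was far above the other controls. Without it the log2 difference was -0.78. Without deleted replicate 2 it was -1.27 (limma adjusted p 0.166).

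Other basal keratins were also highest in control replicate 1. Krt5, which reached 1 FPKM in only 1 library and so was not expressed by the limit used, was 2.79, 0.761 and 0.572 FPKM in controls and 0.365, 0.463 and 0.352 FPKM in deleted uteri. The groups did not overlap, but apart from control replicate 1 the values spanned only 0.352 to 0.761 FPKM. Krt14, the type I partner of Krt5, was 0.413, 0.252 and 0.0772 FPKM in controls and 0, 0.135 and 0 FPKM in deleted uteri. Trp63, the regulator of basal epithelial identity, was also highest in control replicate 1, at 1.21 FPKM against 0.519 to 1.05 FPKM elsewhere, and its group means were 0.86 and 0.831 FPKM. The 18 markers of layered epithelium summed to 15 to 19 FPKM in controls and 14.3 to 22.7 FPKM in deleted uteri, with Krt6a, Krt6b, Sprr1b and Krtdap listed at 0 in all 6 libraries. Markers of tissue that borders the uterus were also set beside Krt15. The 6 ovary markers summed to 34.3 to 36 FPKM in controls and 23.7 to 34.2 FPKM in deleted uteri, with Zp3 listed at 0. The groups did not overlap, but the nearest libraries were 34.3 and 34.2 FPKM. Most of the sum was Foxl2, while Amh was at most 0.683 FPKM and Nr5a1 at most 0.0243 FPKM. The sum therefore cannot be read as an amount of ovary tissue. Of the 3 tested ovary markers, 0 were called and 1 was lower in every deleted library, namely Foxl2, at 26.7 to 28.9 FPKM in controls and 18.1 to 24 FPKM in deleted uteri (limma unadjusted p 0.0202, adjusted p 0.922). Inha, the next most abundant ovary marker, was on average higher in deleted uteri, with means of 5.88 and 7.69 FPKM and overlapping groups. The 6 oviduct markers summed to 5.22 to 9.8 FPKM in controls and 4.12 to 7.12 FPKM in deleted uteri. Most of this sum was Ovgp1, with means of 4.58 and 2.4 FPKM, and Ccdc39, with means of 2.78 and 2.85 FPKM. The groups overlapped for both, and the sum does not measure ciliated cells alone. Of 7 stroma markers within the uterus, 0 were called, 6 were lower (median log2 difference -0.32), and 1, Mfap5, was separated, at 60.1 to 70.8 and 40.4 to 51.5 FPKM. Over all genes the groups were separated with lower deleted values for 4.6%. The part of any of these tissues in the Krt15 and Krt83 values was not tested.

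Krt12, a type I keratin best known from the corneal epithelium, had the widest range of the expressed keratins. It was 2.36, 3.36 and 2.97 FPKM in controls, 6.45 and 7.46 FPKM in deleted replicates 1 and 3, and 0.371 FPKM in deleted replicate 2. The first 2 of these deleted values lay above every control and the last below every control. Its SD on the log2 scale was 0.19 among controls and 1.47 among deleted libraries, where only 0.6% of tested genes had a larger one. The log2 difference was 0.19 (SE 0.63; limma adjusted p 0.989). Without deleted replicate 2 it was 1.03, with a limma adjusted p of 0.0851, and it was -0.19 without deleted replicate 1 and -0.28 without deleted replicate 3. Of the 50-base stretches of Krt12 transcripts, 42% also occur in transcripts of other genes, chiefly A830036E02Rik, which overlaps Krt12 on the opposite strand. The strandedness of the counting is not stated, so reads from the shared stretches may not have been told apart, and the Krt12 values are uncertain to that extent.

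Krt10, the type I keratin of differentiating skin layers, was 3.64, 3.93 and 2.92 FPKM in controls and 3.21, 3.07 and 4.36 FPKM in deleted uteri, with a log2 difference of 0.01 (SE 0.17). Krt17, a type I keratin of skin appendages and stressed epithelium, was 0.948, 1.6 and 0.939 FPKM in controls and 1.61, 2.3 and 1.06 FPKM in deleted uteri (log2 difference 0.28, SE 0.23). Without deleted replicate 2 the Krt17 difference was 0.11, and it was 0.42 without control replicate 2 and 0.45 without deleted replicate 3. The groups overlapped for both. Krt17 was the lowest of the expressed members and the one nearest above the limit. Krt13, a keratin of internal layered epithelia, also reached 1 FPKM in only 1 library, with 0.746, 0.918 and 0.142 FPKM in controls and 0.308, 1.01 and 0.298 FPKM in deleted uteri. Of the 13 stratified keratins that were not expressed, 3 (Krt9, Krt16 and Krt77) were listed at 0 in all libraries.

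Only 1 of the 23 hair keratins was expressed. Krt83, a type II keratin of the hair shaft, was 4.43, 3.7 and 3.73 FPKM in controls and 1.29, 1.44 and 0.646 FPKM in deleted uteri. All 3 deleted libraries lay well below all controls, with means of 3.95 ± 0.413 and 1.13 ± 0.423 FPKM (SD, n = 3), or 28.5% of control. The log2 difference was -1.24 (SE 0.19), with an unadjusted p of 0.000255, the 4th smallest of the 12640 tested genes. It did not pass over all genes in limma (adjusted p 0.669). Leaving out any 1 library kept the log2 difference between -1.35 and -1.06, and without deleted replicate 2 the limma adjusted p was 0.0703.

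An alternative fit with libraries weighted by their quality called 316 of 12640 genes. It had 3730 genes at a limma unadjusted p under 0.05, against 630 in the main fit. With these weights, Krt83 (log2 difference -1.18, limma adjusted p 0.0275) and Krt15 (-1.20, limma adjusted p 0.0486) were past the threshold. They were the only expressed keratins with a limma adjusted p under 0.05 in any of the alternatives run, and in no other alternative was either of them past it.

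The other 22 hair keratins summed to 0.148 to 0.477 FPKM in controls and 0.404 to 0.524 FPKM in deleted uteri, none of them reached 0.3 FPKM in any library, and 10 were listed at 0 throughout. Of 56 keratin-associated protein genes (Krtap), which cross-link keratins in hair, 0 were expressed and 2 were above 0 in any library. Of 7 hair follicle markers, 0 met the expression limit. The highest was Tchh (trichohyalin, a protein of the inner root sheath), at 0.607, 0.724 and 1.01 FPKM in controls and 0.882, 0.845 and 1.08 FPKM in deleted uteri, so it reached 1 FPKM in 2 libraries and its groups overlapped. Foxn1 and Shh were listed at 0 in all libraries. Of the 50-base stretches of Krt83 transcripts, 22.1% also occur in transcripts of other genes, chiefly the related hair keratin Krt86. Krt86 was listed at 0 in all 6 libraries. How reads shared by the 2 genes were assigned is not given in the sources used here, so the Krt83 values are uncertain to that extent.

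**Figure D3:**
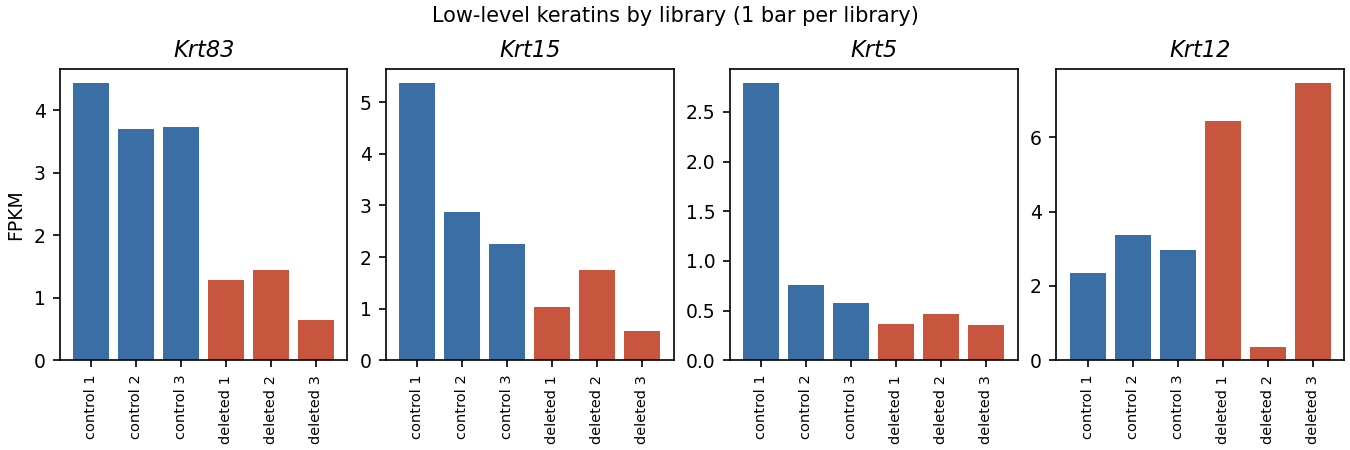
FPKM of Krt83, Krt15, Krt5 and Krt12 in each library, 1 bar per library, blue for floxed controls and red for Nat10-deleted. Krt83 and Krt15 are lower in all 3 deleted libraries, Krt5 is high in control replicate 1 (2.79 FPKM), and Krt12 is 6.45 and 7.46 FPKM in deleted replicates 1 and 3 but 0.371 FPKM in replicate 2.

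Among the 5 remaining keratins, Krt80 and Krt23 were expressed. Krt80, a type II keratin found in many epithelia, was 6.25, 6.99 and 6.62 FPKM in controls and 7.29, 5.32 and 7.57 FPKM in deleted uteri. It was the 5th most abundant keratin, and its deleted libraries again lay on both sides of the controls (log2 difference 0.01, SE 0.15). Krt23, a type I keratin of glandular epithelia, was 2.25, 2.77 and 2.4 FPKM in controls and 2.4, 2.53 and 3.71 FPKM in deleted uteri (log2 difference 0.15, SE 0.17). Deleted replicate 3 was highest and the groups overlapped. Krt222 and Krt90 stayed under 0.5 FPKM and Krt42 was listed at 0 throughout.

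**Figure D4:**
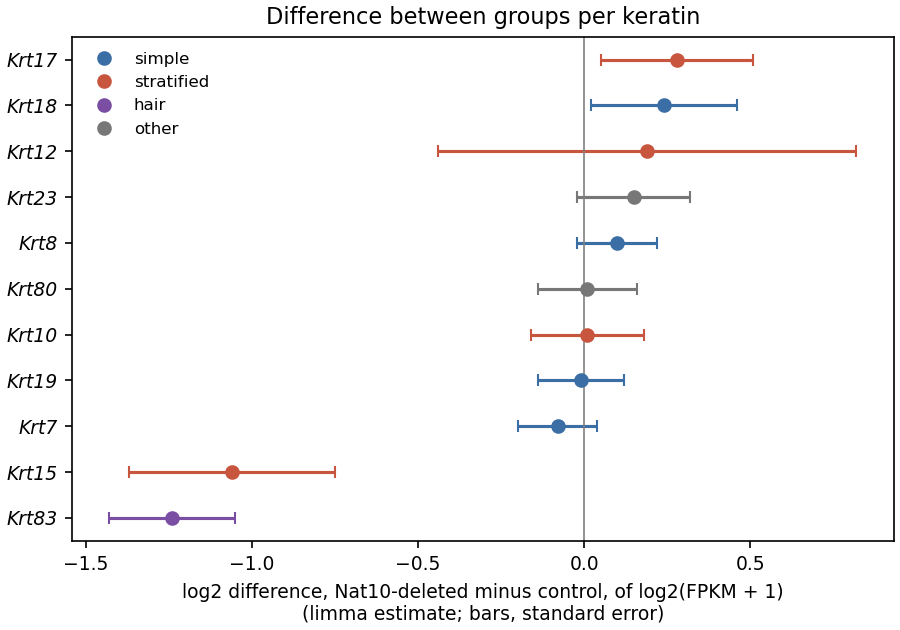
Log2 difference between Nat10-deleted and control libraries (limma estimate on log2(FPKM + 1), bars are the standard error) for the 11 expressed keratins, coloured by class. Krt83 (-1.24) and Krt15 (-1.06) lie apart from the other 9, which are within 0.3 of 0.

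The proteins that anchor keratin filaments were compared in the same fit. Of 8 tested desmosome genes, 0 were called, with 4 higher and 4 lower mean values and a median log2 difference of -0.02. Only 1 of the 8, Pkp3, was separated, beside 6.12% separated higher over all genes. It was 5 to 5.5 FPKM in controls and 5.6 to 6.52 FPKM in deleted uteri (limma unadjusted p 0.166, adjusted p 0.924). Jup (plakoglobin) was 39.7 to 47.1 FPKM in controls and 34.1 to 45.3 FPKM in deleted uteri. Of 6 hemidesmosome genes 0 were called (3 higher, 3 lower, median 0.02), and of 7 linker genes such as Plec (plectin) 0 were called (5 higher, 2 lower, median 0.11). Of 9 tested genes of other intermediate filaments, 0 were called, and 8 had a fitted log2 difference below 0 (median -0.04). For 2 of these 8, Lmnb1 and Lmnb2 (nuclear lamins), the mean FPKM was higher in deleted uteri, at 24.2 against 20.1 and 10.1 against 10 FPKM. Only 1 of the 9, Nes (nestin), was separated, beside 4.6% separated lower over all genes. It was 22.1 to 27.7 FPKM in controls and 17 to 22 FPKM in deleted uteri (limma unadjusted p 0.0466, adjusted p 0.922). Vim, the filament of mesenchymal cells, was 490, 374 and 484 FPKM in controls and 315, 541 and 331 FPKM in deleted uteri, so that deleted replicate 2, where Krt18 was lowest, had the highest Vim. Epithelial regulators had 9 of 13 tested members higher and 4 lower (median 0.06, 0 called). Of the 4, Foxa2, a regulator of uterine glands, was 2.72, 2.18 and 2.06 FPKM in controls and 1.14, 1.25 and 1.75 FPKM in deleted uteri, without overlap (limma unadjusted p 0.024, adjusted p 0.922). Esrp1, an epithelial splicing regulator, was separated in the other direction, at 10.8 to 12.1 FPKM in controls and 13 to 14.4 FPKM in deleted uteri (limma unadjusted p 0.0506, adjusted p 0.922). Each is 1 of 13, beside 4.6% of all genes separated lower and 6.12% separated higher. Foxa2 was also 1 of the 2 tested uterine gland markers, with Cxcl15, whose groups overlapped, and their median log2 difference was -0.33 (0 called). The part of gland cells in the keratin values was not tested. The mesothelium, which covers the uterus and also makes simple keratins, had marker sums of 68.1 to 87.3 FPKM in controls and 69.7 to 84.5 FPKM in deleted uteri, with none of its 8 markers at 0. Wt1, the most abundant of these markers and the largest part of the sum, was 34.7 to 39.3 FPKM in controls and 35.7 to 43.5 FPKM in deleted uteri. Whether Wt1 came from mesothelium alone was not tested. Of the 7 tested mesothelium markers 0 were called, and 2 were lower in all 3 deleted libraries than in any control (4.6% over all genes). Msln (mesothelin) had means of 5.24 and 3.36 FPKM (limma unadjusted p 0.0189, adjusted p 0.922), and Lrrn4 had means of 3.14 and 1.57 FPKM (limma unadjusted p 0.0105, adjusted p 0.922). The part of these cells in the keratin values was not tested.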

How the data were processed

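Whole-uterus poly(A) RNA libraries (TRIzol, Illumina TruSeq RNA kit, per the labels' protocols) were analysed from 3 floxed control and 3 Nat10-deleted samples, grouped by their titles. The deposited values are FPKM, made by the authors before deposit; the headers name no unit, which was taken from the values and from Cufflinks 2.2.1, named with HISAT2 2.2.1 and mm10 in the submitters' processing notes. Annotation, filters and strandedness are not given in the sources used here. All 50 keratin identifiers matched GENCODE M21 (GRCm38). Library values sum to 500764 to 549263.

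Genes at 1 FPKM or more in at least 3 libraries were tested as log2(FPKM + 1) with limma 3.58.1 in R 4.3.3 (eBayes with trend, group as the only term, Benjamini-Hochberg over 12640 genes, threshold 0.05). All log2 differences are on that scale, and for genes of low level they are smaller than those of the FPKM themselves. The 50-base stretches were compared with all GENCODE M21 transcripts on both strands. On simulated data for this comparison (10 runs, 12640 genes), 86.7% of 200 genes changed by 1.5 log2 units were called and 4.15% of calls were false. The simulated noise was independent between genes and equal in both groups, and the lowest genes were not changed. In the data the median SD on the log2 scale was 0.12 in controls and 0.21 in deleted libraries, and 1 deleted library stood apart. The simulation therefore does not give the share of real changes that would be called. Relative depth came from the most frequent ratio of the lowest values between libraries. Absolute depth is unknown, so no counting intervals are given.

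Every keratin reaching 1 FPKM in any library is named, and list genes are named by their mean over all libraries, not by their difference. Exceptions, such as Epcam, Cldn7, Msln, Lrrn4, Lmnb1, Lmnb2, Nes, Pkp3, Mfap5, Rab25, Esrp1, Amh, Nr5a1, Krt14, Krt20, Krt79 and genes listed at 0, were chosen after their values were seen. The members, classes and lists were chosen with earlier results of these data known. The alternatives were other scalings, filters, pseudocount, trend, a replicate block, library weights and leaving out each library. Python 3.11.15 with pandas 2.3.3, scipy 1.17.1 and matplotlib 3.10.9 was used.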

Additional observations from a re-analysis of the deposited data

How the results depend on the processing

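Of 161 recomputed log2 differences of the 11 expressed keratins, 139 kept their direction and side of the threshold, 20 changed sign and 2 passed the threshold (Krt83 and Krt15 with array quality weights, -1.18 and -1.20). The sign changes were all of differences within 0.3 of 0. Krt10 was -0.02 after quantile normalization, median centring and upper-quartile scaling, and -0.06 with array quality weights. Krt80 was -0.01, -0.02 and -0.02 under the 3 scalings. Krt12 was -0.06 with a pseudocount of 0.1. Leaving out 1 library each moved Krt7 between -0.16 and 0, Krt10 between -0.11 and 0.09, Krt12 between -0.28 and 1.03, Krt8 between 0.03 and 0.15, Krt17 between 0.11 and 0.45, Krt18 between 0.08 and 0.49, Krt19 between -0.12 and 0.07, Krt23 between 0 and 0.23 and Krt80 between -0.07 and 0.15. Krt83 and Krt15 were lower in every alternative that could test them (-1.79 to -1.06 and -1.59 to -0.78). The median of the simple keratins ranged from -0.02 to 0.07 and that of the stratified keratins from -0.20 to 0.18 when a library was left out. With a value of at least 1 required in every library, Krt12, Krt15, Krt17 and Krt83 could not be tested and no stratified median was formed.

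The count of genes called over all genes was 0 except with array quality weights (316) and without Nat10-deleted replicate 2 (12; range without 1 library 0 to 12). Scaling moved the balance at an unadjusted p under 0.05 from 339 higher and 291 lower to 259 and 414 (quantile), 248 and 376 (median) or 243 and 386 (upper quartile). With the replicate number as a block, 0 genes were called and Krt83 had the same log2 difference of -1.24 (limma adjusted p 0.849). Same-numbered libraries did not deviate together (correlations -0.341, -0.029 and 0.1), so a pairing by number is not shown. So few correlations cannot exclude one. The cause of these shifts was not tested. Depth limits the keratins under 1 FPKM, whose read numbers are unknown.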

Other observations

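The order of the libraries was compared with that of Mki67 after the values had been seen. From lowest to highest, Krt12 followed deleted replicate 2, control replicates 1, 3 and 2, and deleted replicates 1 and 3, at 0.371, 2.36, 2.97, 3.36, 6.45 and 7.46 FPKM. Mki67 was 24, 10.7, 7.57, 2.47, 2.3 and 1.28 FPKM in the same libraries, the exact reverse order. Krt80 followed the same order as Krt12, at 5.32, 6.25, 6.62, 6.99, 7.29 and 7.57 FPKM. The exact reverse of the Mki67 order was found for 2 of the 11 expressed keratins and for 0.585% of the 12640 tested genes. The same order as Mki67 was found for 0 of the 11 and for 0.981% of the tested genes. This describes 6 libraries, and no p is given.

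Krt79, a stratified keratin of the hair follicle opening, was not expressed by the limit used but was 0.125, 0.23 and 0.143 FPKM in controls and 0.542, 0.461 and 0.336 FPKM in deleted uteri. Every deleted library lay above every control, the reverse of Krt15 and Krt5, at levels too low to have been tested.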
